A study of Homo sapiens with 8 samples.

Results

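The transcripts of 9 genes that p53 activates directly were examined in cultured renal cell carcinoma (RCC) cells given or denied branched-chain amino acids (BCAA). The genes are MDM2, MDM4, FDXR, TP53I3, ZMAT3, TP53INP1, PHLDA3, FAS and AEN, and they were chosen by name, as rows whose Ensembl identifier carries one of these symbols. The choice was made with earlier results of these data known. All 9 were found in both deposited tables, among 25431 genes listed for 769-P cells and 24190 for CAKI-1 cells. The libraries were labelled as clear cell renal cell carcinoma cells and came from these established human lines, each of which stands for 1 tumor. Cells were kept for 16 hours either with BCAA, given as isoleucine at 0.38 mM, leucine at 0.38 mM and valine at 0.17 mM, or without BCAA. Every group (769-P with BCAA, 769-P without BCAA, CAKI-1 with BCAA, CAKI-1 without BCAA) held 2 libraries, 8 in all.

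p53 is a transcription factor that accumulates after DNA damage and other stress, binds response elements near its target genes and raises their transcription. Its targets halt the cell cycle, change redox and nutrient metabolism or prepare the cell for death. MDM2 marks p53 for degradation and MDM4 masks the part of p53 that activates transcription, so these target genes also feed back on their activator.

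Values are reads per gene divided by a size factor for each library, called normalized values here, and they are comparable between libraries of one line only. The listed genes held 30979773 to 64256834 reads in a library. In 769-P, the libraries with BCAA were the deeper ones, with 55829324 and 64256834 reads against 39062721 and 40130258. In every group the spread between the paired libraries was above counting noise (chi-square divided by its degrees of freedom, 3.36 to 12.9). Of the markers of clear cell renal cell carcinoma, PAX8, VIM, KRT8 and KRT18 were present in every library, whereas CA9 was not listed in either table and PAX2 was listed for 769-P alone. NDUFA4L2 did not exceed 2.57 in 769-P and lay between 88.5 and 216 in CAKI-1. None of the immune and endothelial markers that were listed exceeded a normalized value of 12.5 in any library.

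p53 binds a paired motif, the p53 response element, made of 2 half-sites of 10 bases. The RefSeq windows around annotated transcription starts (GRCh38.p14, 250 bases before to 50 after) were searched for it, with both half-sites abutting and at most 3 of 20 bases off the consensus, which reads the same on both strands. Such a match was found in at least 1 window for 4 of the 7 members that had a window (57.1%), against 6.39% of 27305 genes. The members were chosen as direct targets of p53, so this share does not test them. The matches are shown because p53 binds its direct targets at such elements. Sequence outside these windows was not searched. The capitals mark the match, with 5 bases on each side.
MDM2, first match: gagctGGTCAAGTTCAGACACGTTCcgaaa
MDM2, second match: aaaggAGTTAAGTCCTGACTTGTCTccagc
FDXR: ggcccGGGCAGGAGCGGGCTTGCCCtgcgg
FAS: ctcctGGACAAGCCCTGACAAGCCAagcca
AEN: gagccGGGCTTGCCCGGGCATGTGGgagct

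The MDM2 matches lie on the plus strand at chr12:68808923-68808942 and chr12:68808961-68808980, with 2 and 3 mismatches. Both are intronic in GENCODE 29, 94 and 56 bases before the start of the internal MDM2 promoter, so that 2 matches stand within a short stretch. The FDXR match, with 3 mismatches, lies on the minus strand at chr17:74872996-74873015, 21 bases before a RefSeq start and within the 5′ untranslated part of an exon in GENCODE 29. The FAS match, with 2 mismatches, lies on the plus strand at chr10:88991309-88991328, inside the gene and within an exon that GENCODE 29 does not mark as coding or untranslated. The AEN match, with 2 mismatches, lies on the plus strand at chr15:88621306-88621325, 34 bases before a RefSeq start and within an untranslated part of an exon in GENCODE 29. No window of MDM4, TP53I3 or ZMAT3 held these letters, the closest stretches being 5, 5 and 4 bases off the consensus. TP53INP1 and PHLDA3 had no window. These are matches of letters and were not measured as binding here.

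Per 1000 bases of exon, PHLDA3 stood highest of the 9 genes in both lines, with a mean normalized value of 2070 with BCAA and 3079 without BCAA in 769-P, and of 2475 and 3196 in CAKI-1. The lowest was MDM4 in 769-P (122 with BCAA, 202 without) and TP53INP1 in CAKI-1 (102 with BCAA, 93.2 without). Every member had at least 419 reads in every library.

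The first question was how the supply of BCAA changed these transcripts in 769-P cells. With BCAA, 6 of the 9 genes were lower, 1 was higher and 2 did not pass the test (limma on log2(value + 1), Benjamini-Hochberg adjusted p under 0.05 over all genes). Among those called lower, MDM2 fell by 10.7% and TP53I3 fell by 41.1%, the outer values. Across the whole table, 18.2% of 22391 genes tested were lower with BCAA and 20.3% were higher, 38.4% in all. The median log2 fold change was -0.24 over the members and -0.02 over all genes tested. With 2 libraries against 2, an exact two-sided permutation test of a single gene cannot give a p below 0.333, so every call rests on the fit across genes. Labels do not say whether the replicates came from separate cultures, and the p-values then measure only the spread between these libraries, which may be technical.

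**Figure D1:**
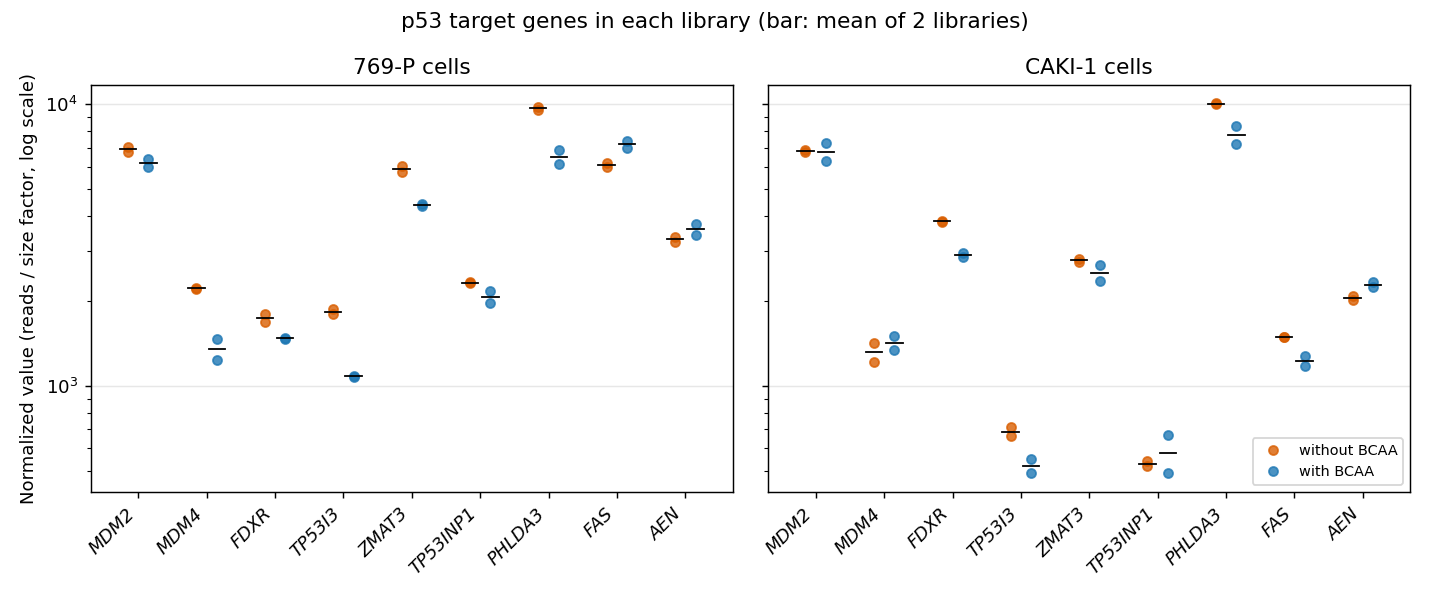
Normalized value (log axis) of each p53 target gene in every library of 769-P (left) and CAKI-1 cells (right), with BCAA in blue and without BCAA in orange; points are libraries and bars are means of 2. In 769-P the libraries with BCAA lie below those without for 7 of 9 genes, as they do for 33.5% of all genes tested. In CAKI-1, MDM2, MDM4 and TP53INP1 overlap between conditions.

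Among the genes that restrain p53, MDM4 showed the clearer fall in 769-P. Its normalized values were 1232 and 1461 with BCAA and 2228 and 2210 without BCAA, 1346 ± 162 against 2219 ± 13.1 (mean ± SD, n = 2 libraries each). The conditions did not overlap (positions are GRCh38, GENCODE 29, here chr1:204516379-204558120), and the log2 fold change was -0.73 (SE 0.079, limma adjusted p = 1.31e-05). MDM2 (chr12:68808176-68850686), the ubiquitin ligase for p53, was at 5963 and 6405 with BCAA against 6777 and 7065 without BCAA. Its fall was smaller, -0.16 on the log2 scale (SE 0.050, limma adjusted p = 0.0229), and it is the member whose call in 769-P was the least secure. It was lost under TMM scaling (limma adjusted p = 0.0571) and under median centering (limma adjusted p = 0.115). MDM2 shares 1357 of its 13284 exon bases with exons of neighboring genes, and the strand setting of the counting was not given in the sources used here.

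The redox and mitochondrial targets both fell in 769-P. TP53I3 (chr2:24077433-24085861), a quinone oxidoreductase linked to oxidative stress, was at 1077 and 1082 with BCAA and at 1871 and 1798 without BCAA. The libraries of each condition lay close together, and its log2 fold change of -0.76 (SE 0.065, limma adjusted p = 1.60e-06) was the lowest among the 9 genes. FDXR (chr17:74862497-74873031), the mitochondrial reductase that passes electrons from NADPH to ferredoxin, was at 1473 and 1471 with BCAA against 1679 and 1804 without BCAA. That fall of 0.24 on the log2 scale (SE 0.065, limma adjusted p = 0.0106) also left no overlap between conditions.

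Of the targets that act on growth and stress signaling, PHLDA3 and ZMAT3 fell in 769-P. PHLDA3 (chr1:201464383-201469237), which competes with AKT for membrane lipids, was at 6873 and 6118 with BCAA and at 9524 and 9797 without BCAA, a log2 fold change of -0.57 (SE 0.056, limma adjusted p = 5.01e-06). ZMAT3 (chr3:179017223-179072279), a zinc finger protein that binds RNA, was at 4420 and 4335 against 5742 and 6020, a log2 fold change of -0.43 (SE 0.048, limma adjusted p = 1.94e-05). TP53INP1, a protein of nuclear bodies and autophagy, was at 1968 and 2175 against 2309 and 2342. Its libraries did not overlap either, but its log2 fold change of -0.17 (SE 0.064) did not pass the test (limma adjusted p = 0.0559). PHLDA3 shares 598 of its 3138 exon bases with another gene on the same strand.

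Of the cell death targets among the members, FAS passed in 769-P and AEN did not. FAS (chr10:88990582-89015785), the death receptor on the cell surface, rose with BCAA from 6197 and 5986 to 7418 and 7010, an 18.4% rise with a log2 fold change of 0.24 (SE 0.048, limma adjusted p = 0.00147). AEN (chr15:88621296-88632282), a nuclease that takes part in DNA breakdown during apoptosis, was at 3762 and 3417 with BCAA and at 3231 and 3383 without BCAA, a log2 fold change of 0.12 (SE 0.059, limma adjusted p = 0.149). For AEN the conditions just failed to overlap, as they did for 33.6% of all genes with BCAA above and 33.5% with BCAA below. FAS shares 380 of 4253 exon bases with ACTA2 on the opposite strand. Of the genes with a match printed above, MDM2 and FDXR thus fell in 769-P, FAS rose and AEN did not pass. MDM4, TP53I3 and ZMAT3, with no match in their windows, all fell in 769-P. In CAKI-1, FDXR and FAS fell among the genes with a match, and MDM2 and AEN did not pass. Among those without a match in their windows, TP53I3 fell there, and MDM4 and ZMAT3 did not pass. A link between match and direction was not tested.

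Depth and condition cannot be told apart in 769-P, and with reads thinned to 30979773 in every library, limma again called 6 members lower and 1 higher. Leaving out 1 library of 769-P left its spread to be estimated from the remaining pair. TP53I3 then passed in all 4 repeats, with limma adjusted p between 0.0349 and 0.0426. MDM4 and PHLDA3 passed without either library with BCAA and did not pass without either library without BCAA, where limma adjusted p lay between 0.0764 and 0.0914. ZMAT3 passed without the first library without BCAA and reached 0.0543 at most otherwise. MDM2, FDXR and FAS passed in none of these repeats but kept their direction. Their log2 fold changes ran from -0.21 to -0.11, from -0.29 to -0.19 and from 0.20 to 0.28. Calls over the whole table also fell in each repeat, so a call lost there says little of a single gene.

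In CAKI-1 cells the same question gave fewer changes. With BCAA, limma called 4 of the 9 genes lower and 0 higher, and 5 did not pass. At an unadjusted p under 0.05, 1 gene (AEN) was higher by limma, and edgeR and DESeq2 called 0 higher. Among all genes, 9.05% of the 21347 tested were lower and 10.8% were higher, 19.9% in all. The median log2 fold change was -0.15 over the members and -0.01 over all genes tested.

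FDXR had the smallest adjusted p of the members in CAKI-1, with normalized values of 2864 and 2969 with BCAA and 3809 and 3855 without BCAA. The log2 fold change was -0.39 (SE 0.060, limma adjusted p = 8.86e-04), and the conditions stood well apart. TP53I3 was lower as well, at 549 and 492 against 662 and 713, with a log2 fold change of -0.40 (SE 0.10, limma adjusted p = 0.0156). Its call was lost under quantile normalization (limma adjusted p = 0.0524). PHLDA3 fell from 10050 and 10006 without BCAA to 7208 and 8326 with BCAA, a log2 fold change of -0.37 (SE 0.069, limma adjusted p = 0.0029).

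FAS fell in CAKI-1, where it was at 1278 and 1172 with BCAA and at 1492 and 1491 without BCAA. The log2 fold change was -0.29 (SE 0.076, limma adjusted p = 0.0214), and median centering ended the call (limma adjusted p = 0.0611). AEN was at 2235 and 2335 with BCAA against 2075 and 2024 without BCAA, a log2 fold change of 0.16 (SE 0.066, limma adjusted p = 0.126). ZMAT3 was at 2693 and 2351 against 2752 and 2818, a log2 fold change of -0.15 (SE 0.074, limma adjusted p = 0.208). Neither AEN nor ZMAT3 overlapped between conditions, which was also so for 28.9% of all genes with BCAA above and 28.8% with BCAA below.

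The remaining genes overlapped between conditions in CAKI-1. MDM2 was at 7283 and 6275 with BCAA and at 6887 and 6744 without BCAA, and the 95% interval of its log2 fold change ran from -0.17 to 0.14. MDM4 was at 1503 and 1337 against 1216 and 1421, with an interval from -0.09 to 0.31. TP53INP1 was at 668 and 488 against 519 and 539, with an interval from -0.19 to 0.41, the widest of the members. The direction of MDM2 turned under median centering (log2 fold change 0.03). Leaving out any 1 library of CAKI-1 left limma with 0 calls among all 21347 genes, although 4084 to 5590 genes kept an unadjusted p under 0.05, so these repeats say nothing of single members.

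**Figure D2:**
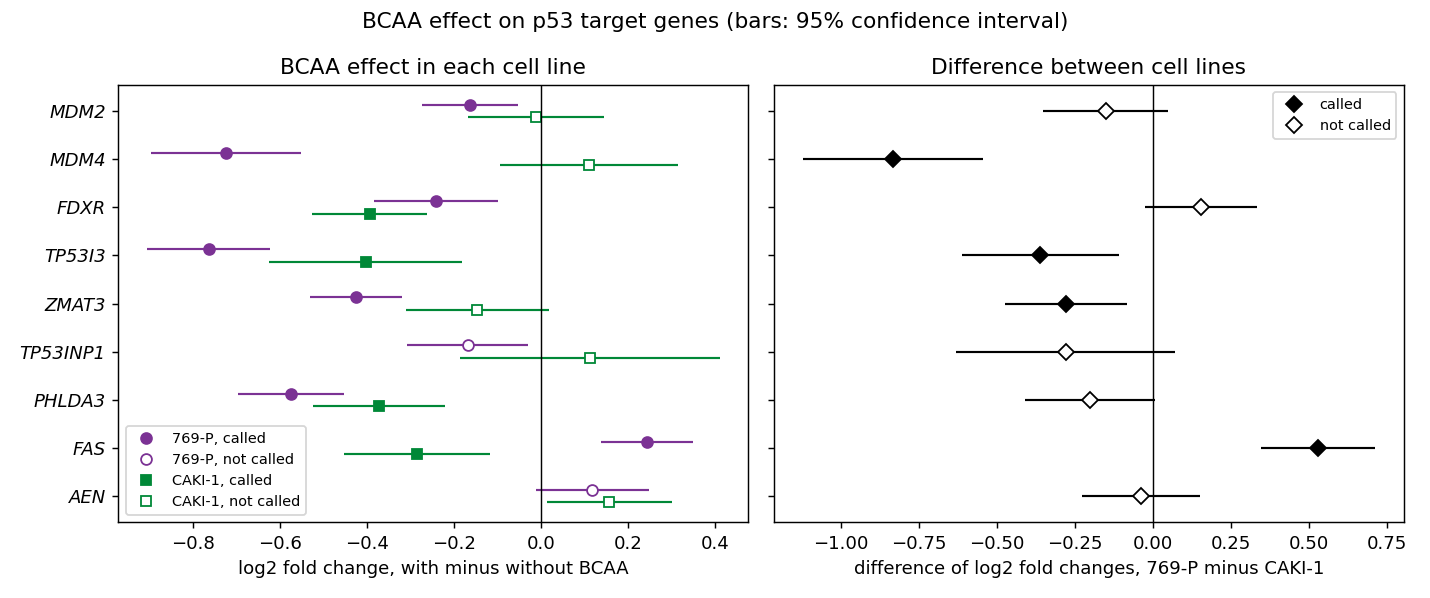
Log2 fold change of each p53 target gene, with minus without BCAA, in 769-P (circles) and CAKI-1 (squares) on the left, and the difference between lines, 769-P minus CAKI-1, on the right; bars are 95% confidence intervals and filled symbols passed the limma test at an adjusted p under 0.05. FDXR, TP53I3 and PHLDA3 lie below 0 and passed in both lines, FAS lies on opposite sides, and the difference passed for MDM4, TP53I3, ZMAT3 and FAS.

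FDXR, TP53I3 and PHLDA3 were thus lower with BCAA in both lines, and no gene was higher in both. Whether the effect itself differed between the lines was tested with an interaction term, in a joint limma model of all 8 libraries in which each effect is a contrast within its own table. Of 19406 genes tested, 21.1% differed, 10.9% with a higher log2 fold change in 769-P and 10.1% with a lower one. For MDM4 the log2 fold change was lower in 769-P by a difference of -0.84 (95% interval -1.12 to -0.55, limma adjusted p = 5.72e-04). For FAS it was higher in 769-P by 0.53 (95% interval 0.35 to 0.71, limma adjusted p = 5.57e-04), with every 769-P library with BCAA above those without and every CAKI-1 library with BCAA below. These differences kept their direction and passed in all 18 alternative fits, including all 8 that left out 1 library. No minimum fold change was applied to the differences.

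The difference also passed for TP53I3 (-0.36, limma adjusted p = 0.042) and ZMAT3 (-0.28, limma adjusted p = 0.0436), both lower in 769-P. Under TMM scaling neither passed (limma adjusted p = 0.0646 for TP53I3 and 0.0784 for ZMAT3). Neither passed in a fit with the replicate number as a block, and TP53I3 did not pass with DESeq2. TP53I3 passed in 2 of the 8 fits without 1 library, those that left out the second library of CAKI-1 with BCAA (limma adjusted p = 0.0169) or without BCAA (0.0449). ZMAT3 passed in 1 of them, without the second library of CAKI-1 with BCAA (limma adjusted p = 0.00384), and reached 0.162 otherwise.

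For the other members the difference did not pass, and its 95% interval ran from -0.35 to 0.05 for MDM2, from -0.03 to 0.33 for FDXR, from -0.63 to 0.07 for TP53INP1, from -0.41 to 0.01 for PHLDA3 and from -0.23 to 0.15 for AEN. Without the second library of CAKI-1 with BCAA, the difference passed for MDM2 (-0.26, limma adjusted p = 0.0296) and TP53INP1 (-0.51, limma adjusted p = 0.00671). Without the first library of CAKI-1 with BCAA, it passed for PHLDA3 (-0.31, limma adjusted p = 0.022).

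Direct targets of p53 outside the 9 genes were described from a list of 28, which includes the 4 genes set apart further below. In 769-P, 12 of the 27 tested were lower with BCAA, 7 were higher and 8 did not pass, and the median over the list was -0.08 on the log2 scale. In CAKI-1, 10 of 28 were lower, 1 was higher and 17 did not pass, with a median of -0.14. Of all genes tested, 18.2% were lower and 20.3% higher in 769-P, and 9.05% were lower and 10.8% higher in CAKI-1. Without any 1 library of 769-P, limma called fewer genes of the list in either direction, as it did over all genes.

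CDKN1A, which encodes the cell cycle inhibitor p21, fell in both lines, with log2 fold changes of -0.51 in 769-P and -0.51 in CAKI-1. It went from 33040 and 33675 without BCAA to 23398 and 23326 with BCAA in 769-P (SE 0.037, limma adjusted p = 4.30e-07). In CAKI-1 it went from 23932 and 22549 to 15800 and 16760 (SE 0.058, limma adjusted p = 1.24e-04). BBC3, which encodes the death-promoting protein PUMA, had log2 fold changes of -1.22 in 769-P and -0.40 in CAKI-1 (limma adjusted p = 6.20e-09 and 0.00222). PLK3, a stress-responsive kinase, had log2 fold changes of -1.12 and -0.40 (limma adjusted p = 6.26e-06 and 0.0213). In 769-P, CDKN1A and BBC3 passed whichever library was left out, and PLK3 did not pass without either library without BCAA, where limma adjusted p reached 0.0866.

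Several targets of p53 are also known targets of ATF4 or CHOP, transcription factors that are switched on when amino acids are short. Of 4 such genes, all part of the list of 28, limma called all 4 lower with BCAA in 769-P and 2 in CAKI-1. Their medians were -1.41 and -0.22 on the log2 scale. These calls are among the 12 and 10 lower genes of that list. Over all genes tested, 18.2% were lower in 769-P and 9.05% in CAKI-1. GDF15, a secreted stress cytokine, fell from 21652 and 21962 without BCAA to 6552 and 6289 with BCAA in 769-P, a log2 fold change of -1.76 (SE 0.042, limma adjusted p = 6.87e-11). In CAKI-1, GDF15 was at 15747 and 15661 without BCAA and at 7490 and 12232 with BCAA, a log2 fold change of -0.71 (SE 0.16, limma adjusted p = 0.00858) whose libraries with BCAA lay far apart. That call was lost with DESeq2 (adjusted p = 0.137), under quantile normalization (limma adjusted p = 0.108) and with thinned reads (limma adjusted p = 0.0596), and the log2 fold change was -0.36 without the first library with BCAA and -1.07 without the second. SESN2, a leucine sensor upstream of mTORC1, fell from 5999 and 5777 to 1754 and 1740 in 769-P, a log2 fold change of -1.75 (SE 0.052, limma adjusted p = 3.50e-10). In CAKI-1 it fell from 4347 and 4595 to 3304 and 3838, a log2 fold change of -0.33 (SE 0.075, limma adjusted p = 0.0101). PMAIP1, which encodes the death-promoting protein NOXA, and TNFRSF10B, a death receptor, complete this set with log2 fold changes of -1.07 and -0.20 in 769-P, and of -0.11 and -0.06 without passing in CAKI-1. TNFRSF10B was the 1 gene of the 4 to lose its call in 769-P when any 1 library was left out (limma adjusted p up to 0.109).

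TIGAR, a regulator of glycolysis, was higher with BCAA in both lines, with log2 fold changes of 0.25 in 769-P and 0.42 in CAKI-1 (limma adjusted p = 0.0123 and 0.00599), and quantile normalization ended both calls. In 769-P, CD82, a tetraspanin of the cell membrane, rose from 571 and 581 without BCAA to 1489 and 1270 with BCAA, a log2 fold change of 1.25 (limma adjusted p = 3.49e-07). CCNG1, which encodes cyclin G1, was also higher in 769-P, by 0.59 on the log2 scale (limma adjusted p = 9.04e-07). In CAKI-1 their log2 fold changes were -0.10 and -0.18 and did not pass (limma adjusted p = 0.478 and 0.0895). In 769-P, the CD82 and CCNG1 calls were lost without either library without BCAA (limma adjusted p up to 0.0533 and 0.0537), and the TIGAR call was lost without any 1 library (up to 0.202). TIGAR, CD82, CCNG1, PMAIP1 and TNFRSF10B were named after their values were seen.

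Of 20 genes that regulate the p53 protein, 7 were lower and 5 higher with BCAA in 769-P. In CAKI-1, of 19 tested, 3 were lower and 6 higher. The medians were -0.10 and -0.07. Among all genes tested, 18.2% were lower and 20.3% higher in 769-P, and 9.05% and 10.8% in CAKI-1. Of the kinases that act on p53 after DNA damage, CHEK1, CHEK2 and ATR rose in both lines. ATM, named after its values were seen, fell in 769-P (log2 fold change -0.40, limma adjusted p = 2.75e-04) and did not pass in CAKI-1 (-0.08, limma adjusted p = 0.734). CHEK1 had log2 fold changes of 0.92 in 769-P and 0.56 in CAKI-1 (limma adjusted p = 2.61e-07 and 5.81e-04), CHEK2 of 0.77 and 0.43 (1.65e-05 and 0.0431) and ATR of 0.40 and 0.44 (2.71e-04 and 0.00181). The CHEK2 call in CAKI-1 was kept in 6 of 18 alternatives and lost in 12, of which 4 left out 1 library. Among the others, it was lost with DESeq2 (adjusted p = 0.0855) and under quantile normalization (limma adjusted p = 0.0811). RPL5, a ribosomal protein that can bind and inhibit MDM2, fell by 0.43 on the log2 scale in each line (limma adjusted p = 2.81e-06 and 3.26e-04). Without any 1 library of 769-P, fewer regulators were called in either direction, and so were fewer of all genes. ATR and ATM then no longer passed (limma adjusted p up to 0.131 and 0.0882), nor did RPL5 without either library without BCAA (up to 0.0657). Of the p53 family members TP63 and TP73, only TP73 passed the filter on low values, and it did not pass the test by limma, edgeR or DESeq2 in either line, also at an unadjusted p under 0.05.

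p53 lowers many cell cycle genes indirectly, through p21 and the repressor complex DREAM. Of 12 such genes, all 12 were higher with BCAA in 769-P and 11 in CAKI-1, with median log2 fold changes of 1.66 and 1.27. Over all genes tested, 20.3% were higher in 769-P and 10.8% in CAKI-1. The effect was higher in 769-P for 8 of the 12, against 10.9% of all genes. Most fits that left out 1 library called fewer of the 12 for this difference. CCNA2, which encodes cyclin A2, rose from 1478 and 1547 without BCAA to 6512 and 6506 with BCAA in 769-P (log2 fold change 2.11, SE 0.053) and from 901 and 966 to 3606 and 3192 in CAKI-1 (log2 fold change 1.86, SE 0.079). BIRC5, which encodes survivin, had log2 fold changes of 1.75 and 1.56, CDK1 of 1.82 and 1.47 and AURKA of 1.99 and 1.35. These genes move with the cell cycle in general. In bulk RNA, fewer dividing cells and less RNA per cell cannot be told apart, and the part that cell cycle phase has in the values of the 9 genes was not tested.

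**Figure D3:**
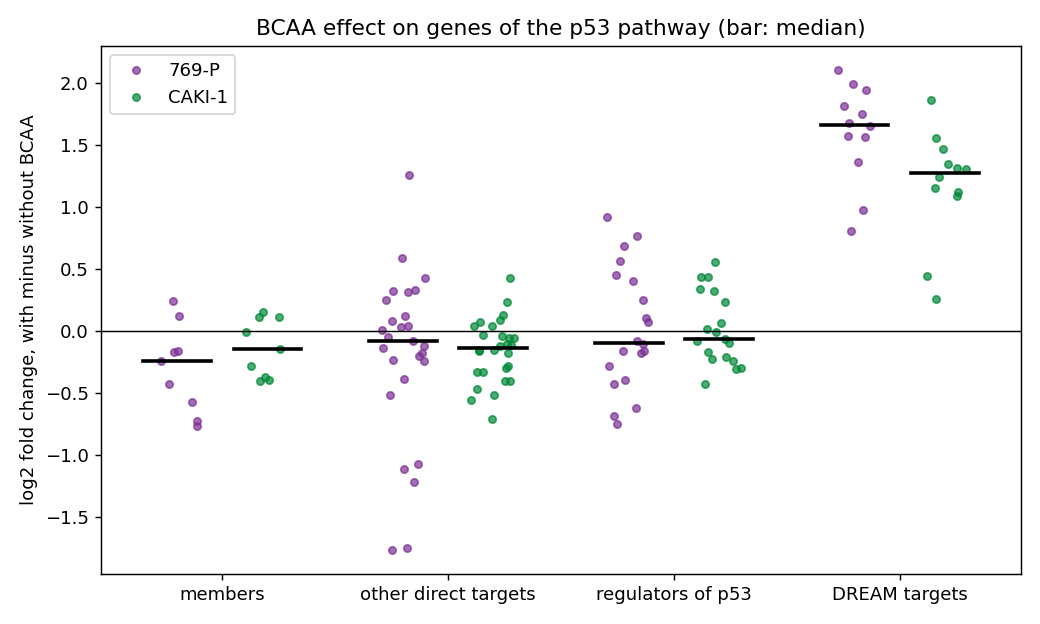
Log2 fold change of single genes, with minus without BCAA, for the 9 members, the other direct p53 targets, regulators of p53 and genes lowered through the DREAM complex (DREAM targets), in 769-P (purple) and CAKI-1 (green); each point is a gene and bars are medians. The DREAM genes lie above 0 in both lines, with medians of 1.66 and 1.27, while the other lists have medians between -0.24 and -0.07 and hold genes on both sides of 0.

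By the distance over the 8 log2 values, each centered on the mean of its line, the genes most like MDM2 among 10880 were BAZ2B (distance 0.09), ZNF304 (0.09) and C17orf75 (0.111). The nearest member was TP53INP1, at rank 424 (distance 0.22), and the farthest was TP53I3, at rank 8063 (distance 0.733).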

How the data were processed

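RNA-seq of 769-P and CAKI-1 cells with or without BCAA was analysed from 8 libraries, 2 per group, grouped by the cell line and treatment in their labels. The deposited files hold a signal, in 1 table per line, made by the authors by dividing the read count of each gene by the size factor of its library. Per the labels, Trim Galore, TopHat2 2.1.0, SAMtools 1.3.1, HTSeq 0.6.0, DESeq and DESeq2 were used with hg38, and the annotation and strand setting were not given in the sources used here. All values were whole multiples of 1 read (100% within 0.01 reads), so reads could be recovered. In each library, 1 divided by the value of 1 read equaled the median-of-ratios size factor, so each table had its own normalization and no level was set across lines. Depth ran from 30979773 to 64256834 reads, which limits counting precision little for genes at these levels.

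Identifiers were matched to symbols through GENCODE 29 (25032 of 25431 in 769-P, 23881 of 24190 in CAKI-1). The main test was limma 3.58.1 in R 4.3.3 (lmFit, eBayes with trend) on log2(value + 1), for genes with a mean of at least 1, per line, with Benjamini-Hochberg adjustment at 0.05 over all genes. A fold change on this scale understates that of low genes. The difference between lines was the interaction term of a fit over 8 libraries. The main limma fits, per line and joint, were first tested on simulated data, and the alternative fits were not. The simulated data held fewer changed genes than were called in the real data. edgeR 4.0.16 and DESeq2 1.42.0 on recovered reads, other pseudocounts, filters, scalings, thresholds, a replicate block, the spread of all 8 libraries and leaving out libraries were alternatives, and thinned reads were added after seeing the data. Replicate numbers did not pair the libraries.

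The members and lists were chosen with earlier results of these data known. Beside the members, at most 4 genes per list were named, those called in both lines in one direction with the largest smaller change, and the 3 genes nearest to MDM2 with a mean of at least 100. Sequences are from RefSeq (GRCh38.p14), with 14 windows for 7 of the 9 members. A gene that the naming rule would add is not reported here.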

Additional observations from a re-analysis of the deposited data

Results flagged for a closer look

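The BCAA effect differed between 769-P and CAKI-1, by the interaction term in limma, for 4 of the 9 p53 target genes. As log2 differences (769-P minus CAKI-1), these were -0.84 for MDM4, -0.36 for TP53I3, -0.28 for ZMAT3 and 0.53 for FAS. FAS is the member with called effects of opposite sign in the lines. The differences of TP53I3 and ZMAT3 did not pass under TMM scaling or with the replicate block, and that of TP53I3 did not pass with DESeq2. Of all genes tested, 21.1% differed.

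Among the other named targets, the difference was -1.42 for SESN2, -1.05 for GDF15, -0.96 for PMAIP1, -0.82 for BBC3 and -0.71 for PLK3, all lower in 769-P. It was 1.36 for CD82 and 0.77 for CCNG1. Among regulators and cell cycle genes it was 0.36 for CHEK1, 0.35 for CDK1 and 0.64 for AURKA. With 1 of the 8 libraries left out, those of CHEK1 and CDK1 passed in 5 and 6 of 8 fits. The depth of the libraries went with condition in 769-P alone, and its part in these differences was not tested beyond the thinned reads, with which the difference was -0.84 for MDM4 and 0.56 for FAS.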

How the results depend on the processing

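Every alternative kept the number of members called, within 1.5 times, except as follows, and the cause was not tested. A minimum of 1.5-fold left 0 higher and 2 lower in 769-P and 0 lower in CAKI-1, and an adjusted p under 0.01 left 2 lower in CAKI-1. For the difference between lines, TMM scaling left 1 of 3 members lower. Without 1 library, limma called 0 members higher and 1 to 3 lower in 769-P (1 to 2 higher and 4 to 6 lower at an unadjusted p under 0.05), 0 lower in CAKI-1 (1 to 5 unadjusted) and 1 to 5 lower for the difference. These refits hold 1 residual degree of freedom fewer, and the lone library is assumed to vary like the pairs that remain.

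Reversed values, none of them past the test in either fit, were the log2 fold change of MDM2 in CAKI-1 with median centering (0.029) and without 1 library (-0.12 to 0.10), of MDM4 (-0.0030 to 0.22) and TP53INP1 (-0.11 to 0.34) in CAKI-1 without 1 library, of CD82 (-0.25 to 0.049), ATM (-0.29 to 0.13) and TNFRSF10B (-0.13 to 0.0075) in CAKI-1 without 1 library, and of the AEN difference without 1 library (-0.11 to 0.030). MDM2 in 769-P was also not called without the filter (limma adjusted p = 0.0677) or with the spread of all 8 libraries (0.0637), and TP53INP1 in 769-P was called with a mean of at least 10 (0.0339).

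Samples shared only a replicate number. Differences between replicates correlated at -0.088 in 769-P and 0.061 in CAKI-1, and the replicate block moved the calls over all genes from 8605 to 8925, from 4243 to 3936 and, for the difference, from 4088 to 3491. With the block, 1 of 3 members stayed called lower for the difference, and TP53INP1 was called lower in 769-P (limma adjusted p = 0.0416). Under each scaling, the median over all genes stayed within 0.1 of its value on the log2 scale.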
